A study of Homo sapiens with 6 samples.

Results

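Cytokinesis, the physical separation of daughter cells at the end of mitosis, was followed at the transcript level through 7 features of the read count table: CEP55, ANLN, ECT2, RACGAP1, PRC1, CIT and the antisense feature AC002563.1, which lies opposite to CIT. They were taken by Ensembl ID with the version dropped, and make up 7 of 60211 distinct IDs in the table. All 7 passed the filter on low counts, which left 13510 features. RNA came from RPE-1, a telomerase-immortalised human retinal pigment epithelial line, and the study asked which transcripts depend on the checkpoint kinase ATR in late S phase and in G2. The series' design text gives 3 independent experiments, called A, B and C here after the letters in the column names.

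There were 6 conditions of this 1 line. In 4h_ATRi and 4h_DMSO, cells were held at the start of S phase for 24 h by thymidine at 2 mM. After 3 washes they were given the ATR inhibitor AZ20 at 2 µM or its solvent DMSO, added 1 h into the release, and were collected at 4 h of release, labelled late S phase. In 6h_ATRi and 6h_DMSO the same was done with collection at 6 h, labelled G2, so the drug or solvent was present for 3 h at the earlier time and 5 h at the later one. Arrested cells had the thymidine block without release or drug, and cycling cells were asynchronous. Each condition had 3 libraries except 6h_ATRi, which had 2 (experiments A and B). An inhibitor acts on every cell of a culture, so the comparisons do not separate ATR in one cycle phase from ATR in another, and in these bulk samples a larger share of cells in G2 and more RNA per cell cannot be told apart.

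Library totals ran from 1758747 to 2357561 counts. The 7 features had between 13 counts (ECT2) and 380 counts (AC002563.1) in a library, so the precision was limited most for ECT2. Levels are given as CPM, the counts scaled to a common library size after TMM normalisation, and are not scaled for gene length. Of 16 cell type markers found in the table, the mature pigment epithelium genes RPE65 and RLBP1 were at 0 in 16 and 14 of 17 libraries, and the blood and endothelial markers CD3E and CDH5 were at 0 in 17 of 17. Among the remaining pigment epithelium markers TYR, OTX2 and MITF had medians of 1.4, 1.98 and 4.48 CPM, while PMEL (overlapped by CDK2 on the opposite strand) had 317 CPM and was at 0 in no library. The photoreceptor marker CRX had a median of 10.6 CPM and was likewise at 0 in no library. The summed level of the 7 pigment epithelium markers, nearly all of it from BEST1 (overlapped by FTH1 on the opposite strand), ran from 11800 to 15600 CPM in 4h_ATRi and from 11800 to 15800 CPM in 4h_DMSO. At 6 h the same sum was 11500 to 14900 CPM in 6h_ATRi and 11600 to 14300 CPM in 6h_DMSO. Counts on the BEST1 row may come from FTH1 transcripts, so the sum cannot be read as a level of pigment epithelium genes.

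Cytokinesis begins in anaphase, when PRC1 bundles antiparallel microtubules into the central spindle and centralspindlin, which contains RACGAP1, binds there and recruits ECT2. ECT2 activates the GTPase RHOA at the cell equator, and the contractile ring of actin and myosin, to which ANLN (anillin) and the citron kinase CIT bind, closes the furrow. The narrow bridge that remains carries the midbody, where CEP55 recruits the membrane-cutting machinery. Many genes of this machinery are transcribed in G2 and mitosis under MuvB complexes, which bind a promoter element called CHR, often together with NF-Y at a CCAAT box.

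Promoter windows from RefSeq (GRCh38.p14, 250 bases before to 50 after the annotated start) were found for 5 of the 7 features (CEP55, ANLN, ECT2, PRC1 and CIT), and not for RACGAP1 or AC002563.1. They are shown because these 5 genes all lay above DMSO after inhibition at 4 h of release, while at 6 h ANLN overlapped. The elements named above are ones that G2 and mitotic genes are known to carry. A link between these elements and the levels was not tested. ECT2 has 2 annotated starts whose windows overlap and share 1 TTTGAA, and only the first is printed. Each sequence runs 5′ to 3′ on the gene's own strand, with capitals for the CHR core TTTGAA, which reads TTCAAA when it lies on the other strand, and for the NF-Y box CCAAT, which then reads ATTGG. The windows are chr10:93496362-93496661 (CEP55, plus strand), chr7:36389612-36389911 (ANLN, plus), chr3:172750476-172750775 (ECT2, plus), chr15:90994486-90994785 (PRC1, minus) and chr12:119877271-119877570 (CIT, minus).
CEP55: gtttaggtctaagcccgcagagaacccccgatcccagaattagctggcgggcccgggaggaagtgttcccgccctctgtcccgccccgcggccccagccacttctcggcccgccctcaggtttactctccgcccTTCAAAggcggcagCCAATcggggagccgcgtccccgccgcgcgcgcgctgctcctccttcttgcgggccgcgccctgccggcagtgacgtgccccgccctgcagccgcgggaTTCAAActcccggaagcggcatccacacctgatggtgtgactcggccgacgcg
ANLN: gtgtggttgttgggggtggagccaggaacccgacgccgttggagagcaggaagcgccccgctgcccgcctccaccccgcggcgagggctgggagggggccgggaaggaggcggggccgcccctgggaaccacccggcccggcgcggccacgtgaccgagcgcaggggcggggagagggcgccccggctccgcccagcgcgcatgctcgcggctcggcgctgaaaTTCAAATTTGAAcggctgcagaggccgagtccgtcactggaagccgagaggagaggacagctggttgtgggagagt
ECT2: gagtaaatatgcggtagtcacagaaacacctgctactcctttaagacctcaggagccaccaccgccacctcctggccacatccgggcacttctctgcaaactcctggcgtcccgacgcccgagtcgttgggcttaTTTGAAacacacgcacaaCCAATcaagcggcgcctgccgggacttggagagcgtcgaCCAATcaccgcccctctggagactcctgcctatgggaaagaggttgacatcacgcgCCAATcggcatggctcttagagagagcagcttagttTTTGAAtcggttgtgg
PRC1: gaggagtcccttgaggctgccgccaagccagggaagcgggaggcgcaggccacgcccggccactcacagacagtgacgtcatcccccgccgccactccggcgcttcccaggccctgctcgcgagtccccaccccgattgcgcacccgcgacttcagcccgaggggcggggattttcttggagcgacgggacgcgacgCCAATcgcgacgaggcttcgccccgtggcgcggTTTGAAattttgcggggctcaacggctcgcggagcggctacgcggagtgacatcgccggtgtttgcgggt
CIT: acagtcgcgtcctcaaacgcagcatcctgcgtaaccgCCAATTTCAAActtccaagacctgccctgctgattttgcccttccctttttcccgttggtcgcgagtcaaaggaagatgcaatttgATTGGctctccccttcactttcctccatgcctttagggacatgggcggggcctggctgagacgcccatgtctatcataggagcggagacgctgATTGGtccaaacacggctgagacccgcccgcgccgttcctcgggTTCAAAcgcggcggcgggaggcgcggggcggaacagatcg

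TTTGAA was present on either strand in all 6 windows of these 5 genes, against 15.2% of 35116 promoter windows of the same length. The related core TTCGAA was in none of the 6, against 1.4% of all windows. CCAAT was in the windows of CEP55, PRC1, CIT and the first start of ECT2, against 34.6% of all windows. In ANLN the first bases of the 2 CHR cores lay 26 and 20 bases before the start, one on each strand, so that they abut as the palindrome in capitals. PRC1 had 1 core 20 bases before the start and 1 CCAAT 53 bases before it. In CEP55 the cores lay 116 and 3 bases before the start and a CCAAT 102 bases before it. ECT2 had cores 115 bases before its first start and at base 35 after it, with 3 CCAAT at 97, 58 and 2 bases before the start. CIT had a core 208 bases before the start, directly next to a CCAAT at 213, and another at base 11 after the start. No CCAAT overlapped a CHR core in these windows. Windows that held either CHR core within 50 bases of the start made up 5.2% of all, and windows with a CHR core and a CCAAT 6.4%. These matches are letters in a window and say nothing of binding.

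**Figure D1:**
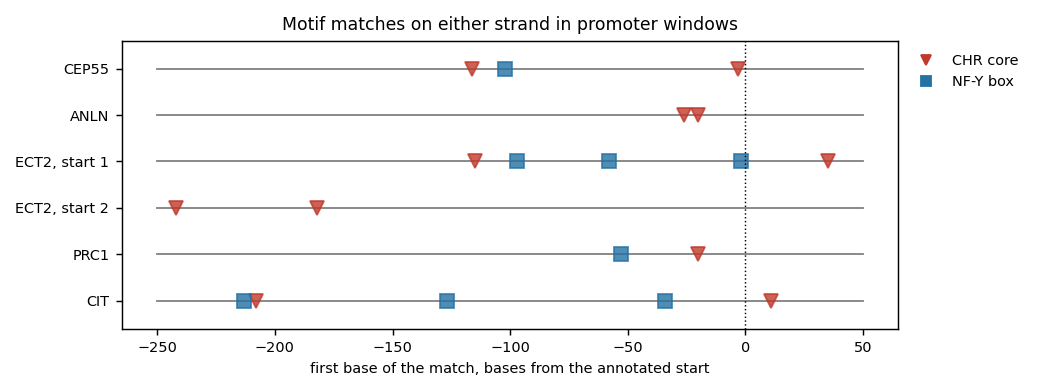
Motif matches in the 6 promoter windows of CEP55, ANLN, ECT2 (2 starts), PRC1 and CIT, with the position of the first base of each match on the x axis, in bases from the annotated start (dotted line), and 1 window per row. Triangles are CHR cores and squares are NF-Y boxes on either strand; every window holds a CHR core, and ANLN and PRC1 have one 20 bases before the start.

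Before any level is read, the strand of the counts needs stating. The kit named in the labels marks strand, and the strand setting used in the counting is not given in the sources used here. Pairs of a coding gene and an annotated antisense feature overlapping its exons, with at least 1 of the pair tested, numbered 2399. The antisense feature had more counts in 1669 (69.6%). The median ratio of antisense over coding counts was 4.28, so the coding row typically held the smaller part of a pair's counts. A count on a row below may therefore come from transcripts of the named gene or of the opposite strand, and the values are uncertain as to the strand for every one of the 7 features. CEP55 and ECT2 have no exon overlapped by an exon of another gene on the opposite strand in GENCODE 29 (GRCh38). The overlaps of the other features are described after the levels.

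After 3 h of ATR inhibition, at 4 h of release, all 7 features were higher than in DMSO cells: every 4h_ATRi library lay above every 4h_DMSO library for 7 of 7, an arrangement found in 5.5% of the 13510 features tested. At 6 h the libraries of 5 of 7 (CEP55, ECT2, PRC1, CIT and AC002563.1) were separated in the same way, against 9.9% of all features. Without inhibitor, ANLN, RACGAP1, CIT and AC002563.1 lay higher in each 6h_DMSO library than in each arrested one, against 8.5% of all features. The levels in each library follow by role, in the order A, B and C (A and B for 6h_ATRi).

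ECT2, the exchange factor that activates RHOA, had 7.71, 14.9 and 10.7 CPM in arrested cells and 11.5, 6.47 and 17.4 CPM in cycling cells. In late S phase it had 23.3, 18.2 and 23.7 CPM in 4h_ATRi, against 16, 10.9 and 9.85 CPM in 4h_DMSO. In G2 the values were 37.5 and 27.5 CPM in 6h_ATRi, against 21.9, 12.6 and 18.6 CPM in 6h_DMSO. Inhibited libraries lay above DMSO libraries at both times without overlap, and the 2 libraries of 6h_ATRi were the highest of all 17. The mean levels in order were 32.5 CPM in 6h_ATRi, 21.7 in 4h_ATRi, 17.7 in 6h_DMSO, 12.2 in 4h_DMSO, 11.8 in cycling and 11.1 in arrested cells. Each neighbour below 6h_ATRi in that order overlapped the next.

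RACGAP1, the GTPase-activating subunit of centralspindlin, had 11.9, 12.9 and 15.7 CPM in arrested cells and 18.6, 17.9 and 15.5 CPM in cycling cells. The 4 h libraries had 33.3, 26.0 and 27.5 CPM in 4h_ATRi, against 16.5, 18.3 and 23.6 CPM in 4h_DMSO. The 6 h libraries had 40.3 and 30.7 CPM in 6h_ATRi, against 36.8, 23.1 and 29 CPM in 6h_DMSO. The conditions were apart at 4 h and overlapped at 6 h. The means of 6h_ATRi (35.5 CPM), 6h_DMSO (29.7) and 4h_ATRi (28.9) were neighbours with overlapping libraries. The mean of 4h_DMSO was 19.5 CPM, and its highest library, 23.6 CPM, was below each 4h_ATRi library but above the lowest 6h_DMSO one (23.1 CPM). The lowest mean was that of arrested cells, 13.5 ± 2.01 CPM (SD, n = 3).

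PRC1, the microtubule bundler of the central spindle, had 29.7, 35.3 and 42.7 CPM in arrested cells and 50.1, 45.8 and 47.8 CPM in cycling cells. At 4 h it had 57.5, 59.3 and 56.5 CPM in 4h_ATRi, against 37.9, 42.6 and 43.8 CPM in 4h_DMSO. At 6 h it had 55.4 and 59.8 CPM in 6h_ATRi, against 45.7, 41.2 and 47.7 CPM in 6h_DMSO. The 5 inhibited libraries were the highest of the 17, with means of 57.7 CPM in 4h_ATRi and 57.6 CPM in 6h_ATRi. Cycling cells (mean 47.9 CPM) came next, and overlapped 6h_DMSO (44.8), which overlapped 4h_DMSO (41.5).

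ANLN, the scaffold that ties the contractile ring to the membrane, had 35.6, 40.8 and 42.7 CPM in arrested cells and 34.1, 36.4 and 52.6 CPM in cycling cells. In the 4 h libraries it reached 78.4, 68.9 and 60.3 CPM in 4h_ATRi, against 53.4, 36.7 and 44.8 CPM in 4h_DMSO. In the 6 h libraries it reached 76.1 and 66.3 CPM in 6h_ATRi, against 64.8, 54.7 and 78.9 CPM in 6h_DMSO. The 3 higher means (6h_ATRi 71.2, 4h_ATRi 69.2 and 6h_DMSO 66.1 CPM) overlapped their neighbours and were clear of the 3 lower ones (4h_DMSO 45.0, cycling 41.0 and arrested 39.7 CPM). At 6 h the highest library of all was a DMSO one, 78.9 CPM in experiment C, for which 6h_ATRi had no library; within A and B the inhibited library was the higher.

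CIT, citron kinase, which organises the late ring and the midbody, had 23.1, 30.3 and 32.5 CPM in arrested cells and 38.1, 37.4 and 38.2 CPM in cycling cells. At 4 h it had 54.7, 68.0 and 63.1 CPM in 4h_ATRi, against 36.9, 35.7 and 31.5 CPM in 4h_DMSO. At 6 h it had 63.3 and 73.8 CPM in 6h_ATRi, against 43.8, 57.8 and 51.5 CPM in 6h_DMSO. The groups were apart at both times, with the nearest libraries at 6 h 63.3 and 57.8 CPM. The means in order were 68.6 CPM in 6h_ATRi, 61.9 in 4h_ATRi, 51.0 in 6h_DMSO, 37.9 in cycling, 34.7 in 4h_DMSO and 28.7 in arrested cells. Cycling cells were apart from both neighbours in that order, and the other neighbours overlapped.

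CEP55, which recruits the abscission machinery to the midbody, had 17.8, 13.9 and 23.9 CPM in arrested cells and 16, 27.9 and 23.2 CPM in cycling cells. In late S phase it had 33.7, 31.5 and 33.7 CPM in 4h_ATRi, against 25.0, 13.9 and 21.7 CPM in 4h_DMSO. In G2 it had 45.4 and 52.8 CPM in 6h_ATRi, against 25.2, 22.6 and 31.8 CPM in 6h_DMSO. Inhibited libraries were higher at both times, and 6h_ATRi (mean 49.1 CPM) was apart from 4h_ATRi (33.0 CPM). From 4h_ATRi down through 6h_DMSO (26.5), cycling (22.3), 4h_DMSO (20.2) and arrested cells (18.5 CPM), each condition overlapped the next.

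AC002563.1, an antisense feature of no assigned role, had 80.7, 60.6 and 75.7 CPM in arrested cells and 87.8, 82.7 and 87.9 CPM in cycling cells. Its values at 4 h were 123, 135 and 96.4 CPM in 4h_ATRi, against 89.3, 70.8 and 74.8 CPM in 4h_DMSO. Its values at 6 h were 213 and 185 CPM in 6h_ATRi, against 132, 124 and 98.6 CPM in 6h_DMSO. The 2 libraries of 6h_ATRi were the highest of the 17 and stood apart from every other. The means of 4h_ATRi and 6h_DMSO were both 118 CPM, with SDs of 19.8 and 17.5 (n = 3 each).

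**Figure D2:**
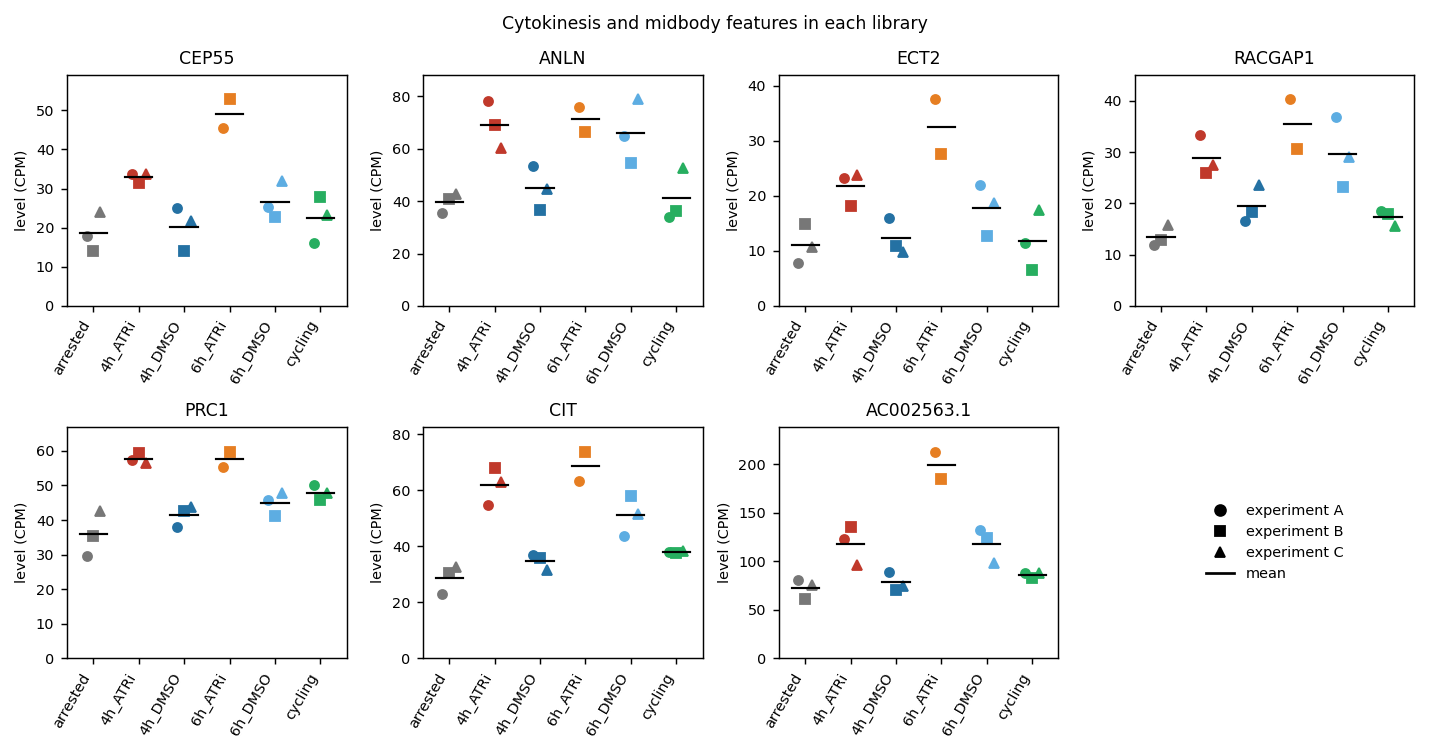
Level of each of the 7 features (y axis, CPM, from 0) in each library, by condition on the x axis, with point shapes for experiments A, B and C and a bar at the mean. The 4h_ATRi points lie above the 4h_DMSO points in every panel; at 6 h those of ANLN and RACGAP1 overlap.

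Inhibition at 4 h was tested in 1 fit over all 17 libraries with edgeR's quasi-likelihood test and Benjamini-Hochberg adjustment over all 13510 features, with a call at an adjusted p under 0.05. CIT rose by log2 0.83 ± 0.19 (SE; 1.78-fold; adjusted p = 0.0426), and was higher in 3 of 3 experiments. It was the 1 of 7 that passed, against 0.289% of all features called higher. The other 6 had log2 fold changes of 0.48 (PRC1) to 0.83 (ECT2) with adjusted p of 0.260 (AC002563.1) to 0.764 (RACGAP1). Before adjustment, 7 of 7 had a p under 0.05 and a positive fold change, against 3.23% of all features. The median log2 fold change was 0.62 over the 7 and -0.01 over all features. Within each experiment 7 of 7 were higher, with medians of log2 0.55 in A, 0.91 in B and 0.43 in C.

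The experiment accounted for part of the spread, and with it as a block 3 of 7 passed at 4 h, against 1.2% of all features called higher. ANLN then rose by log2 0.63 ± 0.17 (adjusted p = 0.0197, against 0.402 without the block), and AC002563.1 by 0.59 ± 0.13 (adjusted p = 0.00304, against 0.260). The adjusted p of CIT was 0.0011 with the block. The remaining 4 had blocked adjusted p of 0.0890 (CEP55), 0.127 (ECT2), 0.171 (PRC1) and 0.299 (RACGAP1). The unblocked call of CIT was lost when any 1 of the 6 libraries at 4 h was left out, with adjusted p of 0.0717, 0.203 and 0.0963 without 4h_ATRi A, B and C, and 0.0969, 0.128 and 0.268 without 4h_DMSO A, B and C. It was also lost without 6h_ATRi A (0.0559), cycling A (0.0581) and cycling C (0.0512), and its log2 fold change lay between 0.78 and 0.92 in these fits. In the authors' deposited table CIT had log2 0.77 with an adjusted p of 0.00563, and AC002563.1 log2 0.56 with 0.0808.

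At 6 h, 0 of 7 passed without the block, against 0.0074% of all features called higher by edgeR's quasi-likelihood test, and 4 of 7 had an unadjusted p under 0.05 and were higher, against 2.65% of features. The log2 fold changes ran from 0.11 ± 0.22 (ANLN) to 0.89 ± 0.27 (CEP55; adjusted p = 0.741), with a median of 0.43, against 0.01 over all features. With the block 2 of 7 passed, against 0.407% of features. CEP55 then rose by log2 0.98 ± 0.24 (adjusted p = 0.0224) and AC002563.1 by 0.70 ± 0.14 (adjusted p = 0.00161; 0.375 without the block). DESeq2 called 1 of 7, AC002563.1 (adjusted p = 0.0232; 0.474% of features with an adjusted p called higher), and gave no adjusted p for CEP55, ECT2 and RACGAP1. In the authors' deposited table AC002563.1 had log2 0.67 with an adjusted p of 0.0406. Both experiments with a 6h_ATRi library had 7 of 7 higher, with medians of log2 0.53 in A and 0.54 in B.

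The response at 6 h minus that at 4 h was tested directly, and 0 of 7 passed by edgeR with or without the block or by DESeq2, with 0 of 7 at an unadjusted p under 0.05 by each. In this difference 0.0% of all features were called higher without the block. The differences ran from log2 -0.51 (ANLN) to 0.18 (CEP55), and none was distinguishable from 0 at this depth and with 2 libraries of 6h_ATRi.

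**Figure D3:**
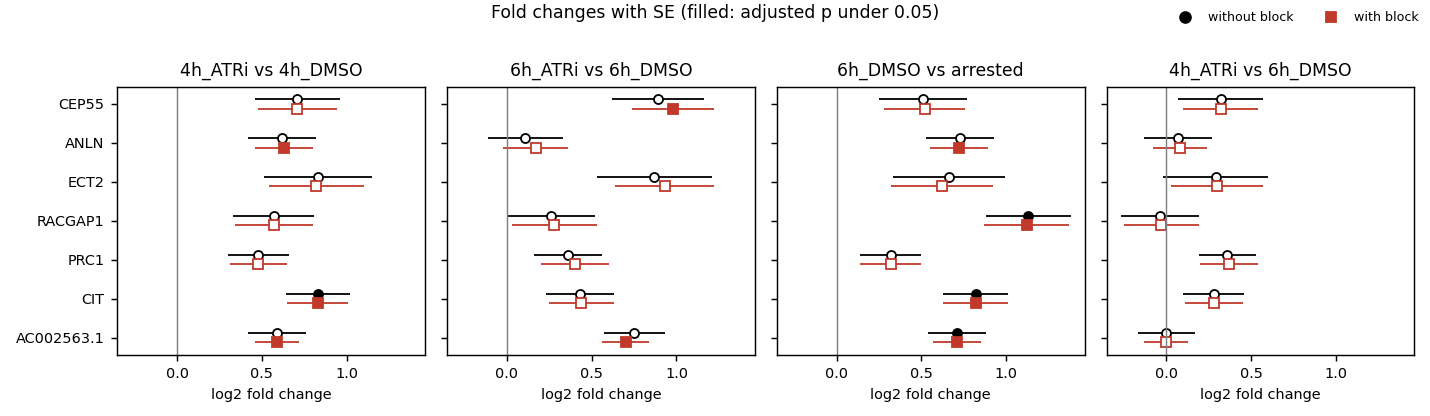
Log2 fold change (x axis) with its SE for each of the 7 features in 4 comparisons, the first-named condition over the second, without the replicate block (black circles) and with it (red squares). Filled symbols have an adjusted p under 0.05: CIT at 4 h and RACGAP1, CIT and AC002563.1 for 6h_DMSO against arrested cells without the block, and further features with it.

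Passage from the arrest to G2 without inhibitor served as the measure of the normal course. In 6h_DMSO against arrested cells 3 of 7 rose, against 1.27% of all features called higher. RACGAP1 rose by log2 1.13 ± 0.25 (2.19-fold; edgeR adjusted p = 0.0106), CIT by 0.82 ± 0.19 (1.77-fold; 0.0160) and AC002563.1 by 0.71 ± 0.17 (1.64-fold; 0.0229). ANLN had log2 0.73 ± 0.20 with an adjusted p of 0.0540, and passed with the block (0.00174; 4 of 7, against 3.77% of features) and by DESeq2 (0.0300; 4 of 7, against 2.61% of features with an adjusted p). CEP55 had 0.51 ± 0.26, ECT2 0.66 ± 0.33 and PRC1 0.32 ± 0.18. Before adjustment 4 of 7 were higher with a p under 0.05, against 5.97% of features. The median was log2 0.71 over the 7 and -0.01 over all features, and 7, 6 and 7 of 7 were higher in experiments A, B and C. In the authors' deposited table, which gives arrested over 6h_DMSO, ANLN had log2 -0.66 (adjusted p = 0.0235), RACGAP1 -0.94 (0.00416), CIT -0.75 (0.00339) and AC002563.1 -0.67 (0.00272).

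These calls depended on single libraries of the 2 conditions. RACGAP1 no longer passed without arrested A (0.0655) or 6h_DMSO A (0.0884). CIT did not pass without arrested A (0.101), 6h_DMSO B (0.0886) or 6h_DMSO C (0.0539). AC002563.1 did not pass without 6h_DMSO A (0.115), 6h_DMSO B (0.0763), arrested B (0.0852) or arrested C (0.0646). With experiment B left out, ANLN (0.00160) and ECT2 (0.0335) passed as well, so that 5 of 7 rose, against 2.96% of features, and ECT2 had log2 1.15 ± 0.37.

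Of the 2 steps in this course, neither gave a call for the 7 features without the block. In 4h_DMSO against arrested cells 0 of 7 passed by edgeR, with or without the block, or by DESeq2 (0.415% of features called higher, 2.25% with the block), and 0 of 7 had an unadjusted p under 0.05, where 4.76% of features had one and were higher. The log2 fold changes ran from 0.12 to 0.52, and the largest, RACGAP1, had groups that did not overlap, as in 7.19% of features. In 6h_DMSO against 4h_DMSO 0 of 7 passed by edgeR and DESeq2 (0.0666% of features called higher), with 4 of 7 at an unadjusted p under 0.05, against 2.83% of features. There ANLN, CIT and AC002563.1 were apart between the times, as 5.11% of features were, with log2 0.56 ± 0.20, 0.55 ± 0.19 and 0.59 ± 0.17. With the block AC002563.1 passed (adjusted p = 0.00391; 0.651% of features called higher). PRC1 had log2 0.11 ± 0.18 over this step.

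In inhibited cells, 6h_ATRi against 4h_ATRi gave 0 of 7 calls by edgeR (0.0222% of features called higher) and 2 of 7 at an unadjusted p under 0.05, against 3.23% of features. CEP55, ECT2 and AC002563.1 were apart between the times, as 10.1% of features were. AC002563.1 had log2 0.75 ± 0.18 (adjusted p = 0.203) and passed with the block (0.70 ± 0.14; 0.000870; 0.814% of features) and by DESeq2 (0.0227; 0.481% of features with an adjusted p). ANLN and PRC1 had fold changes near 1, 1.03 and 0.998, with 95% intervals of log2 -0.44 to 0.52 and -0.43 to 0.42.

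Inhibited cells at 4 h, labelled late S phase, were also set against DMSO cells at 6 h, labelled G2. In 4h_ATRi against 6h_DMSO 0 of 7 passed by edgeR, with or without the block (0.0592% of features called higher, 0.807% with the block), and DESeq2 called none of the 6 it gave an adjusted p. PRC1 was higher at an unadjusted p under 0.05, as 2.87% of features were. The log2 fold changes ran from -0.04 (RACGAP1, 95% interval -0.54 to 0.47) to 0.36 (PRC1, -0.02 to 0.75), and PRC1 was the 1 of 7 whose libraries were apart, as 5.28% of features were. For AC002563.1 the interval was -0.37 to 0.37 and for ANLN -0.36 to 0.50, so differences of the size seen between 4h_ATRi and 4h_DMSO lay outside it. The same held for CIT (0.83 at 4 h, upper bound 0.68) and RACGAP1 (0.57 at 4 h, upper bound 0.47). For CEP55, ECT2 and PRC1 the upper bounds were 0.86, 0.97 and 0.75, above their differences at 4 h of 0.71, 0.83 and 0.48. This comparison shares 4h_ATRi with the inhibitor comparison at 4 h and 6h_DMSO with that at 6 h, and the intervals are approximate ones from the SE and the residual degrees of freedom.

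Arrested cells were compared with cycling cells to place the arrest. All 7 log2 fold changes were below 0, from -0.41 ± 0.18 (PRC1) to -0.05 ± 0.21 (ANLN), and 0 of 7 passed by edgeR, with or without the block, or by DESeq2 (0.429% of features called lower, 2.83% with the block). PRC1 alone had an unadjusted p under 0.05, against 4.93% of features lower, and 3 of 7 had every arrested library below every cycling one, as 8.62% of features did. These 3 were PRC1, CIT and AC002563.1.

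The opposite strand was then examined for the features with exon overlap, using counts that were not scaled for length. ANLN shares 78 bases of exon with MATCAP2 (older symbol KIAA0895), RACGAP1 shares 137 with AQP6, PRC1 shares 406 with PRC1-AS1 and CIT shares 81 with AC002563.1. Over the 17 libraries PRC1-AS1 had 29298 counts and PRC1 1612, a ratio of 18.2. MATCAP2 had 14582 counts against 1858 for ANLN (7.85), and AC002563.1 had 3629 against 1569 for CIT (2.31). In each of these 3 pairs the opposite feature was higher in 17 of 17 libraries. AQP6, an aquaporin gene, had 265 counts against 800 for RACGAP1, and was lower in 17 of 17.

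PRC1-AS1 had 1010, 937 and 848 CPM in 4h_ATRi, against 821, 583 and 618 CPM in 4h_DMSO. At 6 h it had 1540 and 1240 CPM in 6h_ATRi, against 1050, 835 and 773 CPM in 6h_DMSO. The groups were apart at both times. With the block it rose by log2 0.48 ± 0.09 at 4 h (adjusted p = 7.51e-05; 0.590 without the block) and by 0.63 ± 0.10 at 6 h (4.21e-06; 0.601 without). Between 6h_ATRi and 4h_ATRi it had log2 0.58 ± 0.18 (adjusted p = 0.430; 0.000127 with the block), whereas PRC1 had 57.6 and 57.7 CPM. MATCAP2 had log2 0.46 ± 0.17 at 4 h (adjusted p = 0.621) and passed with the block (0.000877). For 6h_DMSO against arrested cells, MATCAP2 rose by log2 0.85 ± 0.17 (0.00458) and PRC1-AS1 by 0.65 ± 0.17 (0.0355). The PRC1-AS1 call was lost without arrested A (0.0549), arrested B (0.116), arrested C (0.0994), 6h_DMSO A (0.208) or 6h_DMSO B (0.0605). AQP6 had log2 1.62 ± 0.55 in that comparison (0.155; 0.00768 with the block). When each coding gene's counts were added to those of its opposite feature, 4 of 4 sums rose in 6h_DMSO against arrested cells (1.26% of features called higher). On their own, 2 of the 4 genes did. The sum for PRC1 had log2 0.63 ± 0.16 (edgeR adjusted p = 0.0367), that for ANLN 0.84 ± 0.17 (0.00441), for RACGAP1 1.24 ± 0.23 (0.00219) and for CIT 0.75 ± 0.15 (0.00493). The opposite feature held 94.8% of the summed counts for PRC1, 88.7% for ANLN, 69.8% for CIT and 24.9% for RACGAP1. Except for RACGAP1, most of each sum therefore came from the row of the opposite feature. With the strand setting not given, which row of a pair holds the gene's own transcripts was not tested.

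**Figure D4:**
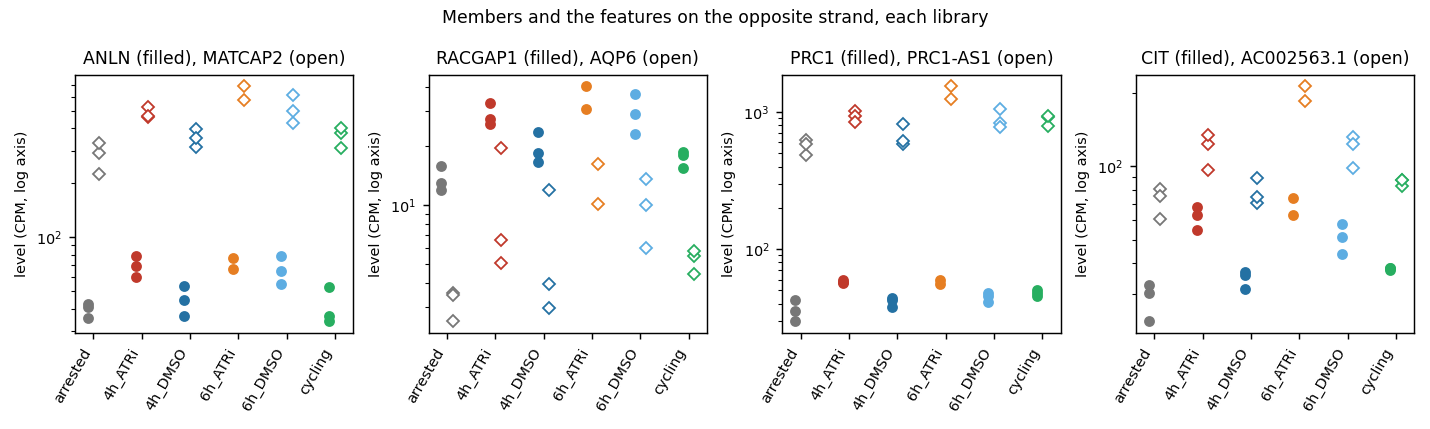
Level in each library (y axis, CPM on a log axis) of 4 genes (filled circles) and of the feature on the opposite strand (open diamonds), by condition on the x axis. MATCAP2, PRC1-AS1 and AC002563.1 lie above ANLN, PRC1 and CIT in 17 of 17 libraries, and AQP6 lies below RACGAP1.

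The wider machinery was described with a list of 38 other genes of cytokinesis, of which 34 were tested. In 4h_ATRi against 4h_DMSO 4 of 34 rose, 0 fell and 30 did not pass, against 0.289% of all features called higher, and the median log2 fold change was 0.08 over the 34 and -0.01 over all features. PLK1, the kinase that licenses RHOA activation in anaphase, had 31.5 ± 6.40 CPM in 4h_ATRi and 10.9 ± 1.80 CPM in 4h_DMSO (SD, n = 3 each; log2 1.53 ± 0.30, adjusted p = 0.0125), and is overlapped by ERN2 and AC008870.3. KIF14 is a kinesin that holds PRC1 and citron kinase at the midbody. It had 22.2 ± 3.81 CPM in 4h_ATRi and 5.78 ± 0.537 CPM in 4h_DMSO (log2 1.93 ± 0.39, edgeR adjusted p = 0.0209). Its counts in 4h_DMSO were only 11, 11 and 13. INCENP, the scaffold of the chromosomal passenger complex, had 73.0 ± 9.18 CPM in 4h_ATRi and 41.0 ± 3.47 CPM in 4h_DMSO (log2 0.83 ± 0.18; 0.0331). KIF20B, a midbody kinesin, had 32.7 ± 4.78 CPM in 4h_ATRi and 16.2 ± 2.45 CPM in 4h_DMSO (log2 1.01 ± 0.23; 0.0499).

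By role, the 2 midbody kinesins and PLK1 rose, and 1 of 4 passenger complex genes rose. Of 3 central spindle genes 0 passed by edgeR without the block, where KIF20A had log2 1.04 ± 0.27 (adjusted p = 0.128). KIF20A, overlapped by CDC23 and BRD8 on the opposite strand, passed with the block. None of the 6 contractile ring genes, 4 septins or 14 abscission genes tested passed by edgeR with or without the block or by DESeq2, with 1 abscission gene on each side, CHMP4B (log2 0.51) and CHMP1A (-0.59), at an unadjusted p under 0.05. The median of the 14 abscission genes was log2 -0.26. Leaving out 1 library ended the call of PLK1 in 4 of 17 fits (up to 0.121, without 4h_DMSO C), of KIF14 in 4 (up to 0.141, without 4h_ATRi A), of INCENP in 5 (up to 0.203, without 4h_ATRi B) and of KIF20B in 14 (0.0526 to 0.271, the highest without 4h_ATRi A). Those libraries were 4h_ATRi A and B and 4h_DMSO A and C for PLK1, 4h_ATRi A and 4h_DMSO A, B and C for KIF14, and 4h_ATRi A and B and 4h_DMSO A, B and C for INCENP, and for KIF20B every library but 4h_ATRi C and arrested B and C.

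At 6 h of inhibition 0 of 34 passed by edgeR, with 4 genes higher and CHMP1B lower where p was under 0.05 before adjustment, and 0 passed with the block. Over all features 0.0074% were called higher, 0.407% with the block, and 2.65% were higher and 2.15% lower at that p. DESeq2 called none and gave most of the list no adjusted p. The smallest p-values were those of KIF20A (log2 0.87 ± 0.28) and of CHMP1B, a subunit of the membrane-cutting ESCRT-III polymer (log2 -0.93 ± 0.40). In 6h_DMSO against arrested cells 5 of 34 rose and 0 fell, against 1.27% of features called higher. They were PLK1 (log2 2.13 ± 0.35, adjusted p = 0.000535), INCENP (1.00 ± 0.18; 0.00197), the centralspindlin kinesin KIF23 (1.40 ± 0.27; 0.00289), KIF20B (0.88 ± 0.24; 0.0446) and CDCA8, a passenger complex subunit (1.54 ± 0.42; 0.0485). With the block 9 rose and 1 fell, against 3.77% of features called higher and 3.94% called lower. The CDCA8 call was lost in 13 of 17 fits with 1 library left out (0.0512 to 0.285, the highest without arrested C) and the KIF20B call in 7 (0.0503 to 0.199). The 7 were those without arrested A, B or C, 6h_DMSO A, B or C, or 6h_ATRi A. KIF23, overlapped by KIF23-AS1, also rose in 4h_DMSO against arrested cells (1.22 ± 0.27; 0.0246), the 1 of 34 called without the block (0.415% of features called higher), and lost that call without 4h_DMSO A (0.103), 4h_DMSO C (0.0983), arrested B (0.104) or arrested C (0.191). With the block PLK1 (log2 1.18 ± 0.36, adjusted p = 0.0361) and the myosin heavy chain gene MYH9 (0.34 ± 0.10; 0.0183) rose as well and VPS4A, the ATPase that disassembles ESCRT-III, fell (-0.54 ± 0.11; 0.000277), against 2.25% of features called higher and 2.52% lower; DESeq2 called KIF23 higher and VPS4A lower. KIF23 had 46.7 ± 8.20 CPM in 4h_ATRi and 41.8 ± 7.19 CPM in 4h_DMSO.

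PLK1 fell in arrested against cycling cells (log2 -1.94 ± 0.35, edgeR adjusted p = 0.00279). It had 4.65 ± 2.38 CPM in arrested cells, from 4, 9 and 14 counts, and 18.3 ± 5.40 CPM in cycling cells. SEPTIN9, a filament protein overlapped by AC111182.1, fell as well (log2 -0.71 ± 0.16; 0.0302), a call lost in 7 of 17 fits with 1 library left out: without arrested A (0.119), B (0.0540) or C (0.226), cycling A (0.214) or B (0.178), 4h_DMSO C (0.0504) or 6h_DMSO C (0.0509). These were 2 of 34, against 0.429% of features called lower. With the block KIF20A (log2 -0.78 ± 0.26, adjusted p = 0.0491) fell too, 3 of 34, against 2.83% of features. In each of the other comparisons 0 of 34 passed by edgeR without the block. For 6h_DMSO against 4h_DMSO, 6 were higher and 0 were lower where p was under 0.05 before adjustment (2.83% and 2.15% of all features), led by INCENP (log2 0.78 ± 0.18, adjusted p = 0.0939), which passed with the block and by DESeq2, and KIF20B (0.76 ± 0.23; 0.494). For 6h_ATRi against 4h_ATRi, 1 was higher and 5 lower at that p (3.23% and 2.84% of all features), with CHMP1B at log2 -1.32 ± 0.39 (0.369) and the septin SEPTIN11 at -0.68 ± 0.21 (0.426), and none passed with the block or by DESeq2. For 4h_ATRi against 6h_DMSO, 4 were higher and 2 lower at that p (2.87% and 2.69% of all features). None passed there with the block or by DESeq2. By edgeR the smallest p was that of VPS4A (log2 -0.37 ± 0.15, adjusted p = 0.761), then CHMP6 (log2 -1.08 ± 0.48, adjusted p = 0.812). CHMP6 had only 8, 10 and 5 counts in 4h_ATRi and 14, 18 and 13 in 6h_DMSO. For the difference of the responses, 1 was higher and 5 lower at that p (1.43% and 1.54% of all features), with CHMP1B at log2 -1.37 ± 0.51 and ZFYVE19, an abscission checkpoint gene, at 1.01 ± 0.41; here too none passed with the block or by DESeq2. CHMP1B, VPS4A, CHMP6 and ZFYVE19 are each overlapped by another feature on the opposite strand.

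**Figure D5:**
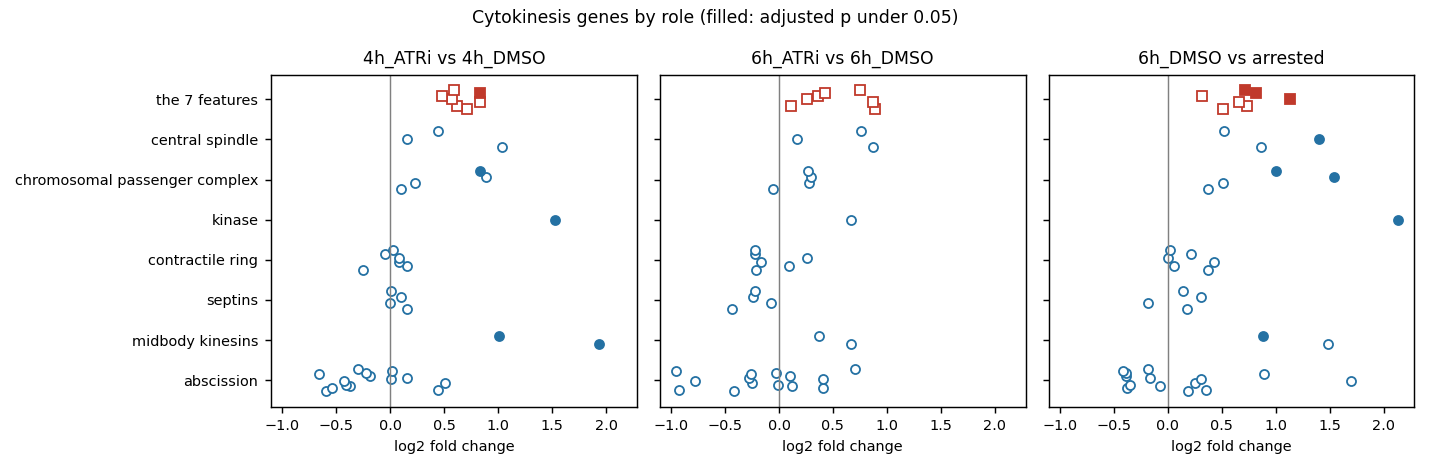
Log2 fold changes (x axis) of the 7 features (red squares) and of 34 other cytokinesis genes by role (blue circles, 1 per gene) in 3 comparisons, from the fit without the block. Filled symbols have an adjusted p under 0.05; at 4 h these are CIT, INCENP, PLK1, KIF14 and KIF20B, and none is filled at 6 h of inhibition.

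Across the 17 libraries the 21 pairs of the 7 features had Pearson correlations of log2 CPM from 0.63 (ANLN with PRC1) to 0.85 (ANLN with ECT2), with a median of 0.75. These are descriptions over libraries that share conditions, experiments and depth. For each feature, the 2 others most like it were sought among 7104 tested features with a mean of at least 10 CPM outside the cytokinesis list. They were ASPM (0.88) and BUB3 (0.87) for ECT2, ARHGAP11A (0.93) and TPX2 (0.93) for RACGAP1, and H1-10 (0.87) and CENPF (0.87) for PRC1. For ANLN they were GNB3 (0.91) and CKAP2 (0.91), for CIT CENPF (0.93) and PMS2P1 (0.92), and for CEP55 JADE1 (0.87) and AC012358.3 (0.86). AC002563.1 was most like HMMR-AS1 (0.97) and MFSD12 (0.96). GNB3 is overlapped on the opposite strand by CDCA3, HMMR-AS1 by HMMR, JADE1 by SCLT1, AC012358.3 by CCDC88A, and ARHGAP11A, H1-10, PMS2P1 and MFSD12 by other features, so those names are uncertain as to the gene.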

How the data were processed

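RNA of 17 RPE-1 libraries in 6 conditions was analysed. The authors deposited whole-number read counts per gene ID (60252 rows), not normalised. Their own comparisons come in another deposited table of log2 fold changes with adjusted p-values, also made by the authors. Directions were checked against the counts for 4h_ATRi against 4h_DMSO and for arrested against 6h_DMSO only. TopHat, HTSeq, DESeq2 and GRCh37 are named per the submitters' processing notes; for versions, annotation and the strand setting, the sources used here give nothing. Symbols came from a name table (55528 IDs) or GENCODE 29 on GRCh38 (423), used for names and overlaps.

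Counts were fitted in edgeR 4.0.16 (TMM, filterByExpr at a count of 10 per library and a total of 15, glmQLFit with robust estimation, glmQLFTest), with a mean per condition over all libraries; CPM used TMM-scaled totals. Totals averaged 2032330 ± 179424 counts (SD, n = 17), so values cover few reads for low genes. Fold changes are given ± SE. On simulated data for 4h_ATRi against 4h_DMSO the fit recovered 33.5% of 200 genes changed by log2 1, with 2 false calls.

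The letters A, B and C were taken to pair libraries, since the design text gives independent experiments. In the conditions compared, deviations of same-letter libraries from their condition means had correlations across genes of 0.138 to 0.536 (22 pairs, median 0.3). Pairs of different letters had -0.465 to 0.262 (44 pairs, median -0.256), and centring on 2 or 3 libraries lowers these values. The ranges overlapped: 4h_DMSO A with arrested C had 0.262, and arrested C with 4h_DMSO C had 0.142. The correlations therefore do not separate experiment A from C, for which the pairing rests on the design text. Nothing says more of how the experiments were separated, so p-values measure the spread between these libraries. Experiment C was not analysed here for 6h_ATRi.

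The 7 features and the lists were chosen with earlier results of these data known. Besides the 7 and features opposite to their exons, the text names, in each comparison, the called genes of the cytokinesis list with the smallest adjusted p (at most 4; the 2 smallest p if none), and the 2 features most like each of the 7. CDCA8, CHMP4B, CHMP1A, MYH9, VPS4A in 4h_DMSO against arrested cells, KIF20A at 4 h and in arrested against cycling cells, and the levels of KIF23 were added after their values were seen. Alternatives were DESeq2 1.42.0, its size factors in edgeR, no filter, the block, leaving out each library or experiment, the compared conditions alone, counts summed with opposite-strand features and CPM from column totals.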

Additional observations from a re-analysis of the deposited data

How the results depend on the processing

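Of 63 fold changes of the 7 features, 34 kept direction and side of the threshold under every alternative fitted to them; 16 changed sign in at least 1, and in 0 of these fits did the reversed value pass. The number of the 7 called at 4 h of inhibition (1) was 3 with the replicate block, and 0 with no filter, without experiment A, B or C, and with the conditions compared alone. At 6 h of inhibition (0) it was 2 with the block and 1 without experiment B or by DESeq2. For 6h_DMSO against 4h_DMSO (0) it was 1 with the block, and for 6h_ATRi against 4h_ATRi (0) it was 1 with the block, without experiment B and by DESeq2. For 6h_DMSO against arrested cells (3) it was 4 with the block, 0 without experiment A or C and 5 without experiment B, and 4 against 2 of the 4 coding genes with summed counts. The block changed no other call of the 7. Leaving out 1 library gave 0 to 1 calls at 4 h of inhibition, 1 to 4 for 6h_DMSO against arrested cells, and 0 elsewhere. CIT in cycling cells had 37.0 CPM from column totals, against 37.9. Over all features, the calls at 4 h of inhibition (39 higher and 3 lower) were 162 and 75 with the block, 69 and 16 without experiment B, 7 and 0 without A, 3 and 0 without C, and 22 and 0 with the conditions alone. At 6 h (1 and 0) they were 55 and 17 with the block, 23 and 2 without B, 17 and 2 by DESeq2, and 10 and 0 with no filter. For 6h_DMSO against arrested cells (171 and 143) they were 509 and 532 with the block, 395 and 376 without B, 34 and 18 without A, and 23 and 6 without C. With the block 6h_DMSO against 4h_DMSO (9 and 2) had 88 and 53, 6h_ATRi against 4h_ATRi (3 and 1) 110 and 57, 4h_ATRi against 6h_DMSO (8 and 5) 109 and 104, 4h_DMSO against arrested (56 and 44) 304 and 340, and arrested against cycling cells (81 and 58) 379 and 383. Fewer were called without experiment A or C: 4h_DMSO against arrested had 4 and 1 without A and 0 and 0 without C, arrested against cycling cells 9 and 8 without either, 6h_DMSO against 4h_DMSO 2 and 0 without either, 6h_ATRi against 4h_ATRi 0 and 0 without either, and 4h_ATRi against 6h_DMSO 0 and 0 without A and 1 and 0 without C. Without B they had 231 and 187, 152 and 112, 47 and 35, 69 and 35, and 70 and 49, in the same order.

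Fold changes near 0 turned sign as follows, on the log2 scale; the cause was not tested. Without experiment A, ANLN had -0.02 at 6 h of inhibition; ECT2 -0.2 and PRC1 0.0025 in the difference of responses; PRC1 0.04 in 6h_ATRi against 4h_ATRi; ANLN -0.05, RACGAP1 0.04 and AC002563.1 0.06 in 4h_ATRi against 6h_DMSO; CEP55 -0.09, ANLN -0.04 and ECT2 -0.3 in 4h_DMSO against arrested; and ECT2 0.11 in arrested against cycling cells. Without experiment B, ANLN had -0.05 in 4h_ATRi against 6h_DMSO and CEP55 0.12 in arrested against cycling cells. Without experiment C, AC002563.1 had -0.05 in the difference and 0.02 in 4h_ATRi against 6h_DMSO, ANLN -0.05 in 6h_ATRi against 4h_ATRi, and in arrested against cycling cells ANLN had 0.12 and ECT2 0.34. With summed counts PRC1 had 0.17 in the difference and 0.55 in 6h_ATRi against 4h_ATRi, and ANLN -0.06 in 4h_ATRi against 6h_DMSO. With the block PRC1 had 0.03 in 6h_ATRi against 4h_ATRi and AC002563.1 0.0011 in 4h_ATRi against 6h_DMSO, where it had 0.003 with DESeq2's size factors and 0.01 with the conditions alone; ANLN had 0.0029 in arrested against cycling cells with the conditions alone. With 1 library left out, the ranges were: at 6 h of inhibition ANLN -0.03 to 0.25; in the difference CEP55 -0.01 to 0.37 and ECT2 -0.23 to 0.24; in 6h_ATRi against 4h_ATRi ANLN -0.09 to 0.14 and PRC1 -0.06 to 0.03; in 4h_ATRi against 6h_DMSO ANLN -0.05 to 0.22, RACGAP1 -0.19 to 0.15 and AC002563.1 -0.1 to 0.14; in 4h_DMSO against arrested CEP55 -0.04 to 0.35 and ECT2 -0.09 to 0.41; and in arrested against cycling cells ANLN -0.14 to 0.19 and ECT2 -0.34 to 0.32. With experiment B or a 6h_ATRi library left out, 6h_ATRi has 1 library, assumed to vary like the others.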
